A study of Mus musculus with 15 samples.

Results

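De novo lipogenesis is the pathway by which the liver turns carbon from sugar into fatty acids. Citrate leaves the mitochondrion, is cleaved to acetyl-CoA in the cytosol, and acetyl-CoA is carboxylated to malonyl-CoA, from which fatty acid synthase builds palmitate with NADPH as the reductant. In liver its genes are known to be switched on after carbohydrate feeding by SREBP-1c, which answers to insulin, and by ChREBP, which answers to sugar metabolites. The 10 genes described here are 8 genes of the pathway and the 2 genes of those transcription factors. They were chosen by symbol, as Fasn, Acly, Acaca, Acacb, Acss2, Me1, Thrsp, Srebf1, Mlxipl and Slc25a1, and all 10 were found among the 56980 gene IDs of the count table.

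The livers came from wild-type C57BL/6J males that went onto their diet at 15 weeks of age and stayed on it for 9 months. The ketogenic diet held 89.9% fat, the high-fat diet 60% fat and the control diet 10% fat. RNA selected for poly(A) was sequenced from 5 libraries per diet, whose labels also carry the tag ALF, which they do not explain. The submitters excluded control replicate 1 as contaminated, so the comparisons use 5 ketogenic, 5 high-fat and 4 control libraries. Whether every library is a different animal is not said in the labels, and the p-values therefore measure only the spread between libraries. In bulk liver RNA, fewer cells of a type and less RNA per cell cannot be told apart.

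Total counts ran from 16329425 to 25349148 per library. Levels are CPM, each library's counts on a common scale of counted reads, scaled by edgeR's TMM factors, and differences are log2 fold changes with their standard error. Adjusted p-values come from edgeR (quasi-likelihood F-test, Benjamini-Hochberg over 14627 tested genes, all 10 members among them), with a threshold of 0.05. The hepatocyte markers Alb, Apoa1, Ttr, Tf, Apob, Serpina1c, Hpx, Cps1 and Ahsg summed to 89109.6 to 142388 CPM in ketogenic, 112552 to 148811 CPM in high-fat and 159849 to 190672 CPM in control livers. The ketogenic and the high-fat sums all lay below every control sum. Against control, 3 of the 9 markers fell in ketogenic livers (4.6% of all tested genes) and 2 of 9 in high-fat livers (5.01%). Their part in the results below was not tested. Ketogenic replicate 5 stood apart from the other ketogenic libraries. On the first principal component of all tested genes, which held 34.4% of the variance, it lay at 62.2, the highest of all libraries. The other ketogenic libraries lay at -13.4 to 32.7, the high-fat libraries at -15.65 to 34.6 and the controls at -50.7 to -41.9. On the second, which held 16.5%, it lay at -26.2, within the control range of -27 to -7.59. The other ketogenic libraries lay there at 23.3 to 51.9 and the high-fat libraries at -18.0 to 2.12. Values without it are given beside the members' calls and the list counts that it changed.

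As a whole, the 10 genes took 0.243 ± 0.105% of all counts in ketogenic livers, 0.534 ± 0.224% in high-fat livers and 1.01 ± 0.123% in control livers (SD, n = 5, 5 and 4). Against control, 9 of the 10 fell on the ketogenic diet and none rose, where 4.6% of all tested genes fell and 7.47% rose. The exception was Mlxipl. Against control, 2 of the 10 fell on the high-fat diet, Acly and Srebf1, and none rose, where 5.01% of all tested genes fell and 6.95% rose. The median log2 fold change of the 10 was -2.04 on the ketogenic diet and -0.71 on the high-fat diet, where the medians of all tested genes were 0.03 and 0.01. Both comparisons use the same 4 control libraries.

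The sequences just upstream of 4 of the genes are shown because these genes mark the ends of the range: Fasn and Acly had the largest falls on the ketogenic diet, and Slc25a1 and Mlxipl the smallest. Each window is the 250 bases before a transcription start, read 5′ to 3′ on the gene's strand, from RefSeq on build GRCm38.p6. RefSeq lists 2 starts for Mlxipl. Capitals mark matches on either strand to an SRE core (TCACNCCAC, the kind of site SREBP proteins bind), an E-box (CACGTG, one of a pair of which makes up a ChREBP site), CCAAT (bound by NF-Y) or a GC box (GGGCGG, bound by Sp1).
Fasn, chr11:120824548-120824797, minus strand: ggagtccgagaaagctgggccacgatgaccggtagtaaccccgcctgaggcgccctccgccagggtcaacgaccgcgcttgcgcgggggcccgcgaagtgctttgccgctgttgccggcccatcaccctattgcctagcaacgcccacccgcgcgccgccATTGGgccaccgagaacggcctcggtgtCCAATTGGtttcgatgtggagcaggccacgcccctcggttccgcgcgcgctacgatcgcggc
Acly, chr11:100528001-100528250, minus strand: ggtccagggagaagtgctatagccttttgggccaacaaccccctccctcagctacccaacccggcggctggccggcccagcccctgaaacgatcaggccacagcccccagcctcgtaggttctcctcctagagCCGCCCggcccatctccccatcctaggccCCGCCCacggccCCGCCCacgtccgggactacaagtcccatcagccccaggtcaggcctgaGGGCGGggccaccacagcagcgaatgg
Slc25a1, chr16:17928220-17928469, minus strand: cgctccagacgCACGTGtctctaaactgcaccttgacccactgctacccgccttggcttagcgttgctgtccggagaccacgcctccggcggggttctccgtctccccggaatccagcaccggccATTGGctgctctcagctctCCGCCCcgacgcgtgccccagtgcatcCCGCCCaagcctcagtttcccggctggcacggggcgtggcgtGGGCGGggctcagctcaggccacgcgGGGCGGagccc
Mlxipl, first start, chr5:135106641-135106890, plus strand: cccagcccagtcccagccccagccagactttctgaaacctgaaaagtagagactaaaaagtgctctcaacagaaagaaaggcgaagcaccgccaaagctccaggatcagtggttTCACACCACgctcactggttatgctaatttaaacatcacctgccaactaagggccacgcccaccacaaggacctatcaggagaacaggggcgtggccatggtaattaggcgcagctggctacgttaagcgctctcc
Mlxipl, second start, chr5:135089640-135089889, plus strand: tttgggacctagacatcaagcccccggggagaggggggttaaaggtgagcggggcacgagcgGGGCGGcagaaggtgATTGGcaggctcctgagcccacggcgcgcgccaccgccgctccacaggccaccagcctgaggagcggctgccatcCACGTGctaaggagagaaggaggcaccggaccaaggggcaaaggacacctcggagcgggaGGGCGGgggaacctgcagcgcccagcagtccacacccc

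The Fasn window held 3 CCAAT matches, at 90, 62 and 59 bases before the start, of which the last 2 overlap. That of Acly held 4 GC boxes and none of the other letters. The Slc25a1 window held an E-box 239 bases before the start, 1 CCAAT match and 4 GC boxes. Of the Mlxipl windows, the first held the only SRE core among the members, 136 bases before the start, and the second an E-box 98 bases before the start, 1 CCAAT match and 2 GC boxes. Over the 14 windows RefSeq gives for the 10 genes, 9 held CCAAT, 7 a GC box, 2 an E-box and 1 an SRE core. In all 32851 windows of the same length, 33.8% held CCAAT, 32.7% a GC box, 6.02% an E-box and 1.05% an SRE core. Searches for DR4 (AGGTCA repeated on the same strand after a gap of 4 bases, the kind of site LXR binds) and for paired E-boxes (CACGTG repeated after a gap of 5 bases) found no match in a member's window, with DR4 in 0.0152% of all windows and paired E-boxes in 0. A match says only that the letters are there.

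Srebf1 (ENSMUSG00000020538) encodes SREBP-1, a membrane-bound transcription factor whose released part drives lipogenic genes. It had 226, 188, 264, 239.8 and 409 CPM in ketogenic livers, 837, 462, 447, 305 and 263 CPM in high-fat livers, and 721, 1296, 1367 and 1147 CPM in control livers. No ketogenic library reached the lowest control, and high-fat replicate 1 was the single high-fat library within the control range. Srebf1 fell with a log2 fold change of -2.09 ± 0.31 on the ketogenic diet (adjusted p = 0.00052) and on the high-fat diet with one of -1.29 ± 0.31 (adjusted p = 0.0146). The high-fat call was lost without control replicate 4 (adjusted p = 0.0520) and kept under the other 21 of 22 alternative settings, with a lowest adjusted p of 0.000154. Counts per gene do not separate SREBP-1a from SREBP-1c.

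Mlxipl (ENSMUSG00000005373), the gene of ChREBP, had the smallest ketogenic difference from control. It had 255, 249, 184, 221 and 402 CPM in ketogenic livers, 217, 199, 314, 205 and 215 CPM in high-fat livers, and 407, 341, 364 and 284 CPM in control livers. Ketogenic replicate 5 lay among the controls, while the other 4 ketogenic libraries lay below all of them. Its log2 fold change was -0.41 ± 0.20 on the ketogenic diet (adjusted p = 0.192) and -0.60 ± 0.20 on the high-fat diet (adjusted p = 0.0632). Without ketogenic replicate 5 it fell with a log2 fold change of -0.64 ± 0.16 on the ketogenic diet (adjusted p = 0.0138) and, in the same refit, passed on the high-fat diet too (adjusted p = 0.00956). The high-fat value also passed without high-fat replicate 3 (adjusted p = 0.0325) or without ketogenic replicate 3 (adjusted p = 0.0428), and over all 22 settings its adjusted p ran from 0.00956 to 0.259. Counts per gene do not separate ChREBP-alpha from ChREBP-beta, which start at different promoters.

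Slc25a1 (ENSMUSG00000003528), the carrier that exports citrate from the mitochondrion, had the smallest fall among the 9 that passed. Its levels were 156, 179, 255, 178 and 132 CPM in ketogenic livers, 287, 230.4, 234, 233 and 226 CPM in high-fat livers, and 278, 246, 253 and 306 CPM in control livers. A single ketogenic library, replicate 3, overlapped the controls, and replicate 5 was the lowest. Slc25a1 fell on the ketogenic diet (log2 fold change -0.59 ± 0.16, adjusted p = 0.0227), and its high-fat value was -0.16 ± 0.16 (adjusted p = 0.544). The ketogenic call was lost without ketogenic replicate 1 (adjusted p = 0.0622), without control replicate 5 (adjusted p = 0.0843), and with only those 2 diets in the fit (adjusted p = 0.0648), while 18 of 22 alternative settings kept it.

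Acly (ENSMUSG00000020917) encodes ATP citrate lyase, which splits the exported citrate into acetyl-CoA and oxaloacetate. It had 166, 158, 172, 190.2 and 262 CPM in ketogenic livers, 876, 672, 394, 279 and 245 CPM in high-fat livers, and 1066, 1085, 1343 and 1598 CPM in control livers. All ketogenic and all high-fat libraries lay below all controls, and ketogenic replicate 5 lay above the lowest high-fat library. Acly fell with a log2 fold change of -2.75 ± 0.33 on the ketogenic diet (adjusted p = 0.000111), to 14.9% of the control mean, and with one of -1.37 ± 0.32 on the high-fat diet (adjusted p = 0.0122), to 38.7%. Acly was the only member below all controls in every high-fat library, and 6.79% of all tested genes were. It passed in both comparisons under all 22 alternative settings.

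Acss2 (ENSMUSG00000027605) makes acetyl-CoA from acetate instead. It had 83.4, 89.6, 139, 103 and 64.0 CPM in ketogenic livers, 330.4, 204, 206, 159.9 and 137 CPM in high-fat livers, and 283, 189, 195 and 338 CPM in control livers. Every ketogenic library lay below every control, and ketogenic replicate 5 was the lowest. Acss2 fell with a log2 fold change of -1.39 ± 0.26 on the ketogenic diet (adjusted p = 0.00304), and on the high-fat diet the value was -0.28 ± 0.26 (adjusted p = 0.53).

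Acaca (ENSMUSG00000020532) and Acacb (ENSMUSG00000042010) encode the acetyl-CoA carboxylases ACC1 and ACC2. ACC1 makes the cytosolic malonyl-CoA that feeds synthesis, and ACC2, at the outer mitochondrial membrane, makes malonyl-CoA that restrains carnitine palmitoyltransferase 1. Acaca had 87.3, 67.9, 43.6, 66.6 and 215 CPM in ketogenic livers, 224, 283, 199, 148 and 112 CPM in high-fat livers, and 250.3, 401, 467 and 406 CPM in control livers. Acacb had 36.4, 61.8, 24.7, 30.9 and 92.8 CPM in ketogenic livers, 167, 231, 226, 136 and 124 CPM in high-fat livers, and 325, 177, 212 and 333 CPM in control livers. Ketogenic replicate 5 was the highest ketogenic library for both, at 3.24 times the mean of the other 4 for Acaca and 2.42 times for Acacb, and still below every control. On the ketogenic diet the log2 fold change was -1.99 ± 0.40 for Acaca (adjusted p = 0.00589) and -2.41 ± 0.36 for Acacb (adjusted p = 0.000627), and both fell. The high-fat values were -0.98 ± 0.40 for Acaca (adjusted p = 0.127) and -0.57 ± 0.35 for Acacb (adjusted p = 0.314). That of Acaca passed once ketogenic replicate 5 left the fit (-1.0, adjusted p = 0.0155), with a range of 0.0155 to 0.269 over its settings.

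Fasn (ENSMUSG00000025153), fatty acid synthase, had the largest fall of the 10 on the ketogenic diet. It had 281, 254, 253, 343 and 1144 CPM in ketogenic livers, 2709, 2143, 1480.3, 778 and 667 CPM in high-fat livers, and 2425, 4393, 4999.7 and 4309.6 CPM in control livers. The mean was 455 ± 387 CPM in ketogenic, 1555 ± 877 CPM in high-fat and 4032 ± 1114 CPM in control livers (SD, n = 5, 5 and 4). Ketogenic replicate 5 had 4.05 times the mean of the other ketogenic libraries and lay inside the high-fat range. High-fat replicate 1 was the single high-fat library above the lowest control. Fasn fell with a log2 fold change of -3.15 ± 0.54 on the ketogenic diet (adjusted p = 0.00176), and without replicate 5 with one of -3.85 ± 0.43 (adjusted p = 5.58e-05), a change in the ratio of 1.63 times. On the high-fat diet its value was -1.37 ± 0.51 (adjusted p = 0.0969), which passed once ketogenic replicate 5 left the fit (-1.40, adjusted p = 0.0179).

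**Figure D1:**
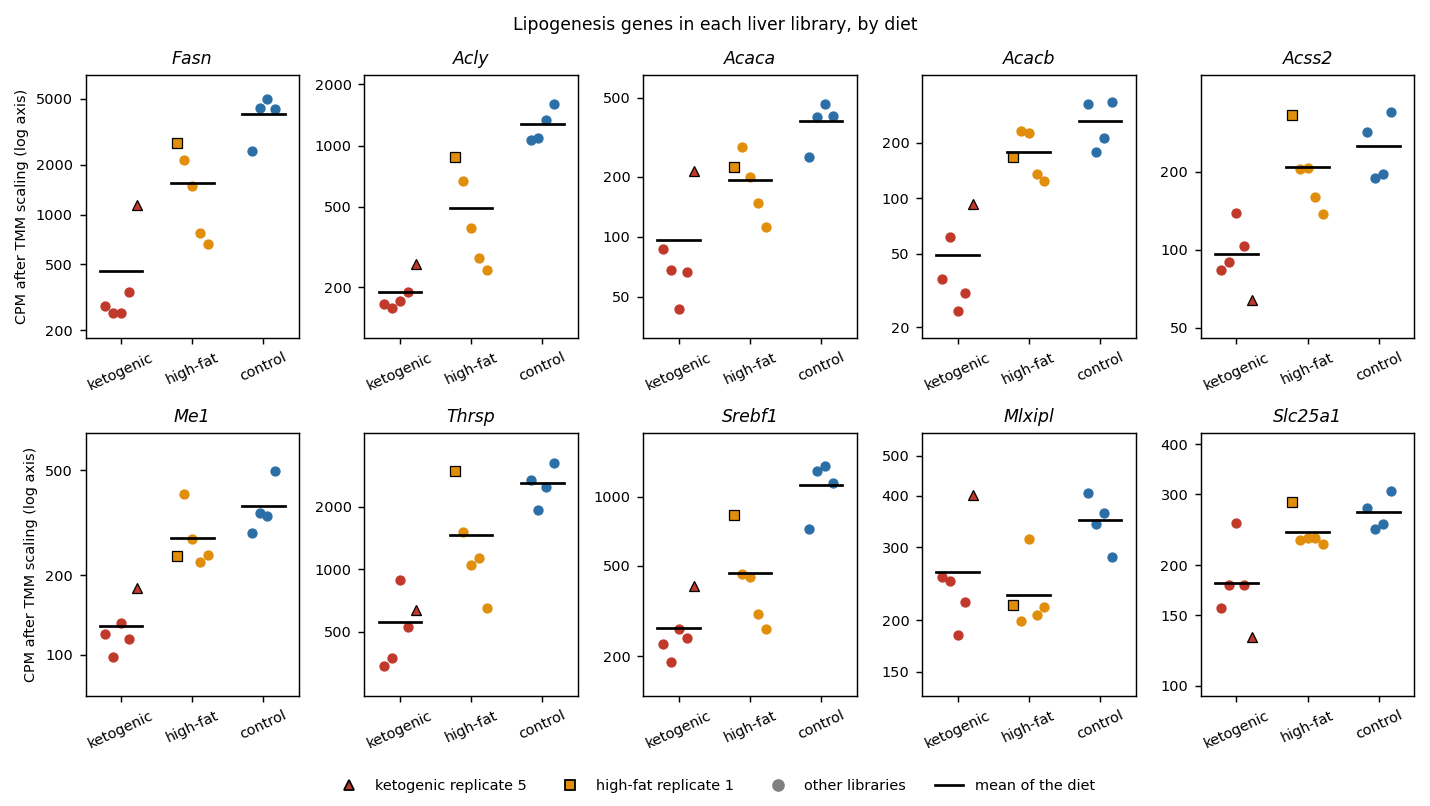
Levels of the 10 genes in CPM, on log axes, with 1 point per library: ketogenic left, high-fat in the middle and control right in each panel, and horizontal bars at the group means. Ketogenic replicate 5 is drawn as a triangle and high-fat replicate 1 as a square; for Fasn the triangle sits at 1144 CPM, above the other ketogenic libraries at 253 to 343 CPM.

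Me1 (ENSMUSG00000032418), the cytosolic malic enzyme, supplies NADPH. It had 120.3, 98.0, 132, 115 and 179.6 CPM in ketogenic livers, 238, 406, 274, 225 and 239 CPM in high-fat livers, and 289, 345, 337 and 496 CPM in control livers. The ketogenic libraries lay below all of the others, replicate 5 included. Me1 fell with a log2 fold change of -1.51 ± 0.21 on the ketogenic diet (adjusted p = 0.000267), while the high-fat value of -0.41 ± 0.21 did not pass (adjusted p = 0.216).

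Thrsp (ENSMUSG00000035686), also called Spot 14, is a small protein that responds to thyroid hormone and carbohydrate and promotes lipogenesis. It had 344, 372, 893, 529 and 638 CPM in ketogenic livers, 2998, 1516, 1054, 1132 and 649 CPM in high-fat livers, and 2711, 1934, 2503 and 3261 CPM in control livers. Ketogenic replicate 3, not replicate 5, was the highest of its diet, and high-fat replicate 1 was the single high-fat library within the control range. Thrsp fell with a log2 fold change of -2.23 ± 0.38 on the ketogenic diet (adjusted p = 0.0015). The high-fat value was -0.82 ± 0.37 (adjusted p = 0.168), and without high-fat replicate 1 it passed at -1.26 (adjusted p = 0.0135), with a range of 0.0112 to 0.336 over its settings.

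**Figure D2:**
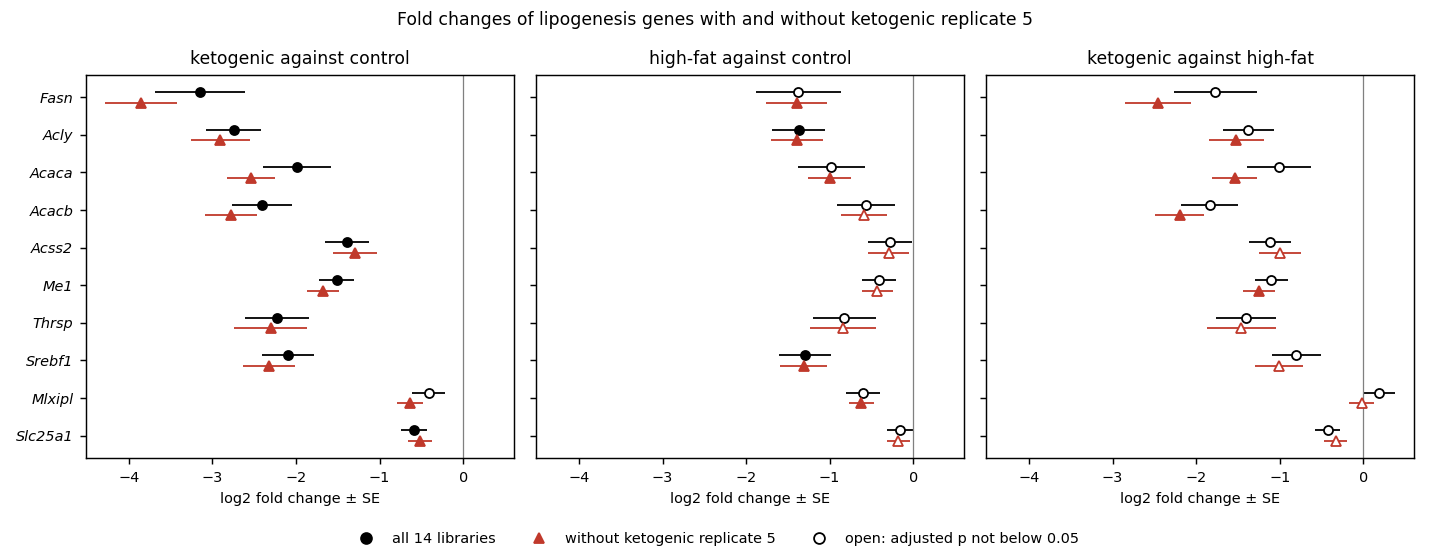
Log2 fold changes of the 10 genes with their standard errors, in 3 panels on a shared axis for ketogenic against control, high-fat against control and ketogenic against high-fat. Black circles use all 14 libraries, red triangles leave out ketogenic replicate 5, and open symbols did not pass the threshold. With all libraries the plot shows Fasn at -3.15 and Mlxipl at -0.41 as the ends of the range on the ketogenic diet.

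The number of members that passed moved with the libraries and the tool. Without ketogenic replicate 5, all 10 fell on the ketogenic diet against control, where 5.02% of all tested genes fell. On the high-fat diet 5 then fell, Fasn, Acly, Acaca, Srebf1 and Mlxipl, where 7.95% of all genes fell. DESeq2 called 4 members lower on the high-fat diet, against 7.79% of all genes, and edgeR called 4 when the fit held only the high-fat and control libraries, against 7.93%.

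Counting libraries rather than fold changes, 8 of the 10 genes were lower in every ketogenic library than in any control, as were 5.17% of all tested genes. Mlxipl and Slc25a1 were the exceptions, and leaving out ketogenic replicate 5 made it 9 of 10, against 6.88% of all genes. Without high-fat replicate 1, 5 members (Fasn, Acly, Thrsp, Srebf1 and Slc25a1) were lower in every remaining high-fat library than in any control, against 11% of all genes. High-fat replicate 1 was the highest of its diet for each of these 5. Leaving out a library can only keep or raise such a count, so the count without it is a description and no support. High-fat replicate 1 was the highest of its diet for 6 members in all. Ketogenic replicate 5 was the highest of its diet for 7, the lowest for Acss2 and Slc25a1, and between the others for Thrsp. Beside these values, ketogenic replicate 5 had the lowest hepatocyte sum of its diet. It also had the highest sums of monocyte-derived macrophage markers (400.2 CPM, with a ketogenic median of 80.1 CPM), Kupffer cell markers (525 and 205 CPM), stellate cell and fibroblast markers (721 and 383 CPM), cholangiocyte markers (201 and 55.3 CPM) and lymphocyte markers (19.99 and 4.27 CPM). Over the diets, stellate cell and fibroblast sums ran from 309.9 to 721 CPM in ketogenic, 375 to 484 CPM in high-fat and 283 to 299.5 CPM in control livers, and 4 of 7 markers rose on the ketogenic and 3 of 7 on the high-fat diet. These counts were 2 of 7 on the ketogenic and 5 of 7 on the high-fat diet without ketogenic replicate 5. Monocyte-derived macrophage sums ran from 37.2 to 400.2 CPM in ketogenic, 92.4 to 146 CPM in high-fat and 37.2 to 51.9 CPM in control livers, with 2 of 7 markers higher on the ketogenic and 1 of 7 on the high-fat diet. Leaving out ketogenic replicate 5 made it 2 of 7 on the ketogenic and 5 of 7 on the high-fat diet. Of all tested genes, 7.47% rose on the ketogenic and 6.95% on the high-fat diet, and 7.24% and 10.2% without that library. The same refit put 1 Kupffer cell and 1 cholangiocyte marker higher on the high-fat diet, where none had passed. With all libraries the cholangiocyte markers had a median log2 fold change of -0.18 there. Other markers fell: 1 of 6 Kupffer cell markers on the ketogenic diet against control, with and without ketogenic replicate 5. Between ketogenic and high-fat, 1 Kupffer cell, 1 monocyte-derived macrophage and 1 cholangiocyte marker fell without that library. The share of all tested genes was 1.25%. Spp1 is on both the monocyte-derived macrophage and the cholangiocyte list, so the counts and sums of these lists are not independent. The part of these cells in the lipogenic values was not tested.

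Adipocytes also express the lipogenic genes, so markers of adipocytes, and of the neighbouring pancreas, were read in the same libraries. Adipoq, which defines adipocytes, was at 0.0424 to 0.919 CPM in ketogenic, 0.462 to 1.82 CPM in high-fat and 0.343 to 2.95 CPM in control livers. All 7 adipocyte markers summed to 21.2 to 179 CPM in ketogenic, 19.5 to 55.0 CPM in high-fat and 7.48 to 28.9 CPM in control livers, and the largest sum was nearly all Cfd, at 168 CPM in ketogenic replicate 3. Cfd was also the 1 adipocyte marker of 5 tested that rose on the ketogenic diet against control, where 7.47% of all tested genes rose. The 12 pancreatic acinar markers summed to 6.96 to 378 CPM in ketogenic, 117 to 827 CPM in high-fat and 26.1 to 1866 CPM in control livers. The highest sums were in ketogenic replicate 2, high-fat replicate 1 and control replicate 2. All 12 had lower values in ketogenic livers, with log2 fold changes of -4.97 to -2.10 against control and -4.37 to -1.31 against high-fat. High-fat values against control ran from -0.93 to -0.0054. None of the 12 passed in any of the 3 comparisons, and the sums of the groups overlapped. Their part in the members' values was not tested.

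Set directly against the high-fat diet, the ketogenic diet gave lower values for 9 of the 10 genes, with Mlxipl the exception at 0.19 ± 0.19 (adjusted p = 0.875). The median log2 fold change was -1.11, against 0.02 over all tested genes. No member passed in edgeR's quasi-likelihood test, where 0.0547% of all tested genes fell and 0.00684% rose. At an unadjusted p under 0.05 there were 9 members, against 8.7% of all genes, and DESeq2 called 4 lower, Acly, Acacb, Acss2 and Me1, against 0.761% of all genes. Nearest to the threshold were Me1 at -1.10 ± 0.20 (adjusted p = 0.0613) and Acacb at -1.84 ± 0.34 (adjusted p = 0.0636). These 2 genes were also the members lower in every ketogenic than in any high-fat library, as were 0.889% of all genes. Me1 passed without control replicate 2 (adjusted p = 0.0476) or control replicate 5 (adjusted p = 0.0356), over a range of 4.53e-05 to 0.179.

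This comparison changed with 1 library. Without ketogenic replicate 5, 5 members fell against high-fat, where 1.25% of all tested genes fell. By log2 fold change they were Fasn at -2.46 ± 0.39 (adjusted p = 0.00689), Acaca at -1.54 ± 0.27 (adjusted p = 0.00955), Acacb at -2.20 ± 0.30 (adjusted p = 0.00215), Me1 at -1.25 ± 0.19 (adjusted p = 0.00321) and Acly at -1.52 ± 0.32 (adjusted p = 0.0284). Each of these 5 was then lower in every ketogenic than in any high-fat library, as were 3.17% of all genes. The transcription factor genes did not pass, with Srebf1 at -1.01 (adjusted p = 0.0872) and Mlxipl at -0.02 ± 0.15 (adjusted p = 0.973), a value of the other sign. Acss2 at -1.0 (adjusted p = 0.0551), Thrsp at -1.46 (adjusted p = 0.0872) and Slc25a1 at -0.33 (adjusted p = 0.217) did not pass either.

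Ratios of 2 genes within a library do not depend on the scaling between libraries, and 3 were compared by an exact two-sided permutation test of the difference in mean log2 ratio, adjusted over 9 tests. The log2 ratio of Mlxipl to Srebf1, the pair of transcription factor genes, was 0.17, 0.41, -0.52, -0.12 and -0.02 in ketogenic livers, -1.95, -1.21, -0.51, -0.57 and -0.29 in high-fat livers, and -0.83, -1.93, -1.91 and -2.01 in control livers. Every ketogenic ratio exceeded every control ratio. The ketogenic mean was higher than control by 1.65 (exact permutation p = 0.00794, the smallest that 5 against 4 allows, adjusted p = 0.0429) and higher than high-fat by 0.89 (p = 0.0238, adjusted p = 0.0429). The high-fat mean exceeded control by 0.76, which did not pass (exact permutation p = 0.111, adjusted p = 0.167).

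The log2 ratio of Acss2 to Acly, the acetate and citrate routes to cytosolic acetyl-CoA, was -1.0, -0.82, -0.31, -0.88 and -2.03 in ketogenic livers, -1.41, -1.72, -0.93, -0.80 and -0.84 in high-fat livers, and -1.91, -2.52, -2.78 and -2.24 in control livers. Both fat-rich diets were shifted toward Acss2: all high-fat ratios and 4 of the 5 ketogenic ratios exceeded every control ratio, and ketogenic replicate 5 did not. The difference from control was 1.356 on the ketogenic diet (exact permutation p = 0.0238, adjusted p = 0.0429) and 1.22 on the high-fat diet (p = 0.0159, adjusted p = 0.0429). Between ketogenic and high-fat it was 0.13 (exact permutation p = 0.714, adjusted p = 0.714).

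For the carboxylases, the log2 ratio of Acacb to Acaca was -1.26, -0.14, -0.82, -1.11 and -1.21 in ketogenic livers, -0.43, -0.29, 0.19, -0.13 and 0.14 in high-fat livers, and 0.38, -1.18, -1.14 and -0.29 in control livers. The controls spread over the ranges of both other diets. The ketogenic mean minus the high-fat mean was -0.80 (exact permutation p = 0.0238, adjusted p = 0.0429), while ketogenic against control (-0.35, p = 0.429, adjusted p = 0.482) and high-fat against control (0.45, p = 0.278, adjusted p = 0.357) did not pass. Of the 5 ratio differences that passed, none kept an adjusted p under the threshold when any 1 library of the diets compared was left out, except control replicate 2 in the 3 set against control. The adjusted p of the exact permutation test was then 0.0536 to 0.103, with fewer arrangements of the libraries. Against control, 4 against 4 cannot go below an exact permutation p of 0.0286. Between ketogenic and high-fat, 4 against 5 can still reach 0.00794, the same smallest exact permutation p as 5 against 5.

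**Figure D3:**
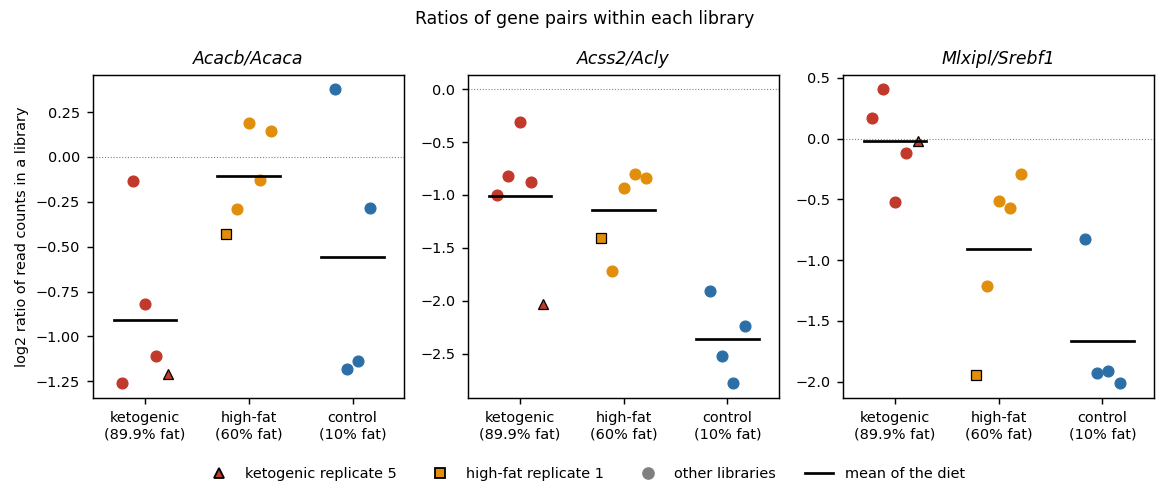
Log2 ratios of 3 pairs of genes within each library, with ketogenic left, high-fat in the middle and control right, 1 point per library and a bar at the group mean. For Mlxipl to Srebf1 all ketogenic points, from -0.52 to 0.41, lie above all control points, from -2.01 to -0.83.

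Levels of different genes can be set beside each other only per length, here as mean CPM per kb of exon. That length counts every base in any annotated exon of a gene, over all its transcripts, as 10163 bases for Acss2 and 17074 for Acaca. A gene whose transcripts in liver are shorter than this is placed too low. The order, and which neighbours overlap, therefore hold only for these lengths. In ketogenic livers the order was Thrsp at 254, Slc25a1 at 83.2, Mlxipl at 47.3, Srebf1 at 47.1, Fasn at 41.6, Acly at 35.95, Me1 at 33.5, Acss2 at 9.43, Acaca at 5.62 and Acacb at 5.12 CPM per kb. In high-fat livers it was Thrsp at 671, Fasn at 142, Slc25a1 at 112, Acly at 93.4, Srebf1 at 82.1, Me1 at 71.8, Mlxipl at 41.6, Acss2 at 20.4, Acacb at 18.3 and Acaca at 11.3 CPM per kb. Control livers had Thrsp at 1189, Fasn at 368, Acly at 241, Srebf1 at 201, Slc25a1 at 125, Me1 at 95.3, Mlxipl at 63.0, Acacb at 27.2, Acss2 at 24.7 and Acaca at 22.3 CPM per kb. Thrsp was first on every diet, and Fasn came next on the high-fat and control diets but followed Slc25a1, Mlxipl and Srebf1 on the ketogenic diet. Without ketogenic replicate 5, Fasn was at 25.8 CPM per kb in ketogenic livers and followed Acly at 32.5 and Me1 at 30.2 CPM per kb as well, while Acaca at 3.89 came after Acacb at 3.99 CPM per kb. The other genes kept their places. With all libraries, neighbours in the order whose libraries did not overlap were Thrsp and the next gene on every diet, Me1 and the next gene on every diet, and Mlxipl and the next gene on the high-fat and control diets. The order of all other neighbours is within the spread of the libraries.

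The genes outside the set with the most similar pattern over the 14 libraries included Enpep, Pnpla3, Elovl6, Ank and Pklr. Likeness was the root mean square distance between standardised log2 CPM and the members' mean, and it ran from 0.274 for Enpep to 0.309 for Pklr among 11647 candidates. Within the members it ran from 0.180 for Acly and 0.220 for Fasn to 0.717 for Slc25a1 and 0.987 for Mlxipl. Each member is part of that mean and so drawn nearer to it, which the outside genes are not. Pnpla3, a lipid droplet hydrolase gene, averaged 0.717 ± 1.44 CPM in ketogenic, 2.698 ± 1.90 CPM in high-fat and 22.8 ± 9.73 CPM in control livers. Its ketogenic values were 0.0849, 0, 0.204, 0 and 3.30 CPM, so that without replicate 5 the mean was 0.0723 ± 0.0967 CPM (SD, n = 4). All ketogenic values lay below the lowest control value, 8.40 CPM, and no fold is given against control because 2 libraries held no read of the gene. On the high-fat diet it fell with a log2 fold change of -3.10 ± 0.93 (adjusted p = 0.0481), a call that was lost without control replicate 2, 3, 4 or 5, high-fat replicate 2, 3, 4 or 5, or ketogenic replicate 3.

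Genes around the pathway were followed in 8 lists. Of all tested genes, 4.6% fell and 7.47% rose on the ketogenic diet against control, and 5.01% fell and 6.95% rose on the high-fat diet. Without ketogenic replicate 5 these shares were 5.02% and 7.24%, and 7.95% and 10.2%. Of 10 tested genes around ChREBP and sugar sensing, 6 fell and 1 rose on the ketogenic diet against control, and 2 fell and 1 rose on the high-fat diet. Without ketogenic replicate 5, 3 fell and 1 rose on the high-fat diet, and the ketogenic counts were the same. Pklr, liver pyruvate kinase, had 296 ± 66.9 CPM in ketogenic, 555 ± 79.1 CPM in high-fat and 1357 ± 232 CPM in control livers. It fell with a log2 fold change of -2.20 ± 0.18 on the ketogenic diet (adjusted p = 6.02e-06) and -1.29 ± 0.18 on the high-fat diet (adjusted p = 0.000383). The fructose pathway genes Khk, ketohexokinase, and Tkfc, triose kinase, fell on the ketogenic diet with log2 fold changes of -1.15 ± 0.17 and -1.02 ± 0.13 (adjusted p = 0.000458 and 0.000127), and Tkfc fell on the high-fat diet with one of -0.68 ± 0.13 (adjusted p = 0.00302). Txnip, a gene induced by glucose through ChREBP and its paralogue, rose on the ketogenic diet (log2 fold change 0.68 ± 0.17, adjusted p = 0.0166) and on the high-fat diet with one of 0.71 ± 0.17 (adjusted p = 0.0146), and its high-fat call was lost without control replicate 4 (adjusted p = 0.0613). Of the 10 listed targets outside the pathway, 6 fell on the ketogenic diet and 2 on the high-fat diet. Both counts include Pnpla3, whose ketogenic call rests on levels at or near 0 CPM. On the high-fat diet the count was 5 of 10 without ketogenic replicate 5 and 5 of 10 without high-fat replicate 1, and on the ketogenic diet it was 6 and 7 of 10. Among these targets Aacs, acetoacetyl-CoA synthetase, had 73.6 ± 22.9 CPM in ketogenic, 126 ± 16.9 CPM in high-fat and 278 ± 85.4 CPM in control livers, and fell on the ketogenic diet (log2 fold change -1.92 ± 0.24, adjusted p = 0.000127) and on the high-fat diet (-1.14 ± 0.24, adjusted p = 0.00592). Gpam, which starts triglyceride synthesis, fell on the ketogenic diet (log2 fold change -1.31 ± 0.22, adjusted p = 0.00127).

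Among the 20 genes of SREBP-1 control, 1 rose and 3 fell on the ketogenic diet, and 1 rose and 2 fell on the high-fat diet. Of all tested genes, 7.47% rose and 4.6% fell on the ketogenic diet, and 6.95% rose and 5.01% fell on the high-fat diet. Counts this small among 20 genes are not read as a result about the list. The counts without ketogenic replicate 5 were 2 higher and 3 lower on the ketogenic diet and 1 higher and 3 lower on the high-fat diet. With all libraries, the rise on both diets was Insig2, an endoplasmic reticulum protein that retains SREBP precursors. It had 232 ± 70.8 CPM in ketogenic, 315 ± 118 CPM in high-fat and 64.7 ± 19.5 CPM in control livers, and rose on the ketogenic diet (log2 fold change 1.84 ± 0.31, adjusted p = 0.00133) and on the high-fat diet (2.28 ± 0.32, adjusted p = 0.000471). Its relative Insig1, itself a target of SREBP, fell on the ketogenic diet (log2 fold change -1.80 ± 0.40, adjusted p = 0.00943) and on the high-fat diet (-1.42 ± 0.40, adjusted p = 0.0322). The high-fat call of Insig1 was lost without high-fat replicate 3, 4 or 5 or control replicate 4 or 5, with an adjusted p of up to 0.106 over all settings. Nfyb, an NF-Y subunit, fell on the ketogenic diet (log2 fold change -0.38 ± 0.09, adjusted p = 0.00867) and on the high-fat diet (-0.41 ± 0.09, adjusted p = 0.00636). With libraries scaled by their totals both calls were lost (adjusted p = 0.136 for ketogenic and 0.0604 for high-fat).

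Of 8 genes that control acetyl-CoA carboxylase, 3 fell on both diets, Mid1ip1, Prkaa2 and Prkab1, and none rose. The share of all tested genes that fell was 4.6% on the ketogenic and 5.01% on the high-fat diet. Mid1ip1, a Thrsp relative that promotes polymerisation of the enzyme, had 41.9 ± 7.95 CPM in ketogenic, 75.4 ± 36.2 CPM in high-fat and 150.05 ± 19.97 CPM in control livers. It fell with a log2 fold change of -1.84 ± 0.26 on the ketogenic diet (adjusted p = 0.000388) and with one of -0.99 ± 0.26 on the high-fat diet (adjusted p = 0.0229), where the call was lost without high-fat replicate 3 or 4 or control replicate 4, with an adjusted p of up to 0.0737. The AMP-activated kinase subunits Prkaa2 and Prkab1 fell on the ketogenic diet with log2 fold changes of -0.55 ± 0.14 and -0.47 ± 0.12 (adjusted p = 0.0167 and 0.0195), and lost the call without control replicate 3, and Prkaa2 also without control replicate 4, with an adjusted p of up to 0.154 for Prkaa2 and 0.209 for Prkab1 over all settings. Their high-fat falls, -0.48 ± 0.14 and -0.44 ± 0.12 (adjusted p = 0.0346 and 0.0279), were both lost without high-fat replicate 3, 4 or 5 or control replicate 3, that of Prkaa2 also without control replicate 4 or 5 and that of Prkab1 without control replicate 2.

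Further genes lengthen and desaturate the new fatty acids. Of 13 tested genes of elongation and desaturation, 1 rose and 3 fell on the ketogenic diet against control, 3 rose on the high-fat diet, and 1 fell between ketogenic and high-fat. Of all tested genes, 7.47% rose and 4.6% fell on the ketogenic diet against control, and 6.95% rose on the high-fat diet. Between ketogenic and high-fat 0.0547% fell. Without ketogenic replicate 5 the counts against control were 3 higher and 5 lower on the ketogenic diet and 4 higher and 1 lower on the high-fat diet. Elovl6, which extends palmitate to stearate, had 92.6 ± 112 CPM in ketogenic livers, where replicate 5 was at 294 CPM and the others at 36.3 to 46.0 CPM, against 262 ± 99.1 CPM in high-fat and 849 ± 202 CPM in control livers. It fell on the ketogenic diet (log2 fold change -3.19 ± 0.62, adjusted p = 0.00529), and with one of -4.34 without replicate 5. Fads1 and Fads2 are the desaturases of polyunsaturated fatty acid synthesis. Fads2 had 869 ± 120 CPM in ketogenic, 1423 ± 278 CPM in high-fat and 679 ± 126 CPM in control livers, and rose on the high-fat diet (log2 fold change 1.07 ± 0.17, adjusted p = 0.00111). Fads1 had 471 ± 45.2 CPM in ketogenic, 876 ± 133 CPM in high-fat and 660 ± 65.9 CPM in control livers, and was the listed gene that fell between ketogenic and high-fat (log2 fold change -0.90 ± 0.12, adjusted p = 0.0149). That call was lost without high-fat replicate 2 (adjusted p = 0.0533), ketogenic replicate 1 (adjusted p = 0.0600) or ketogenic replicate 4 (adjusted p = 0.0861). It was also lost with only the 2 diets compared in the fit and with a library number term, and kept under 17 of 22 alternative settings.

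Among the remaining lists, citrate and acetyl-CoA handling and mitochondrial fatty acid synthesis held genes that rose against control and none that fell. The NADPH supply list held both. Of all tested genes, 7.47% rose and 4.6% fell on the ketogenic diet, and 6.95% rose and 5.01% fell on the high-fat diet. Of 13 genes of citrate and acetyl-CoA handling, 3 rose on both diets and none fell. Without ketogenic replicate 5, 4 rose on the ketogenic and 3 on the high-fat diet. The largest was Acss3, a mitochondrial acyl-CoA synthetase, at 36.8 ± 9.17 CPM in ketogenic, 48.4 ± 15.8 CPM in high-fat and 4.46 ± 3.08 CPM in control livers, a log2 fold change of 3.05 ± 0.42 for ketogenic (adjusted p = 0.000383) and 3.44 ± 0.42 for high-fat (adjusted p = 0.000323). Slc25a10, the dicarboxylate carrier, rose with a log2 fold change of 0.63 ± 0.13 for ketogenic (adjusted p = 0.00414) and 0.83 ± 0.13 for high-fat (adjusted p = 0.000736). Pcx, pyruvate carboxylase, rose with a log2 fold change of 0.54 ± 0.13 for ketogenic (adjusted p = 0.0132) and 0.57 ± 0.13 for high-fat (adjusted p = 0.011). Of 7 genes of mitochondrial fatty acid synthesis, a separate pathway, 3 rose on the ketogenic diet and 2 on the high-fat diet. These counts were 4 and 2 without ketogenic replicate 5. Acsf3, which makes mitochondrial malonyl-CoA, rose with a log2 fold change of 1.05 ± 0.15 for ketogenic (adjusted p = 0.000329) and 0.89 ± 0.15 for high-fat (adjusted p = 0.00151). Oxsm, its ketoacyl synthase, rose with a log2 fold change of 0.47 ± 0.12 for ketogenic (adjusted p = 0.0213) and 0.44 ± 0.12 for high-fat (adjusted p = 0.0303), calls that were both lost without control replicate 2, 3 or 4, the ketogenic one also without ketogenic replicate 1 or 2 and the high-fat one without high-fat replicate 2, 3 or 4. In the NADPH supply list, of 8 tested genes 2 fell on the ketogenic diet and 1 rose on the high-fat diet. Without ketogenic replicate 5, 3 fell on the ketogenic diet and 1 rose on the high-fat diet. The ketogenic fall of the pentose phosphate gene Pgd was -0.60 ± 0.16 (adjusted p = 0.0247). That call was lost without control replicate 2, 4 or 5 or ketogenic replicate 2 or 4.

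Between ketogenic and high-fat, Fads1 was the only listed gene that passed with all libraries. Without ketogenic replicate 5, 5 of 13 elongation and desaturation genes, 5 of 10 ChREBP and sugar genes, 2 of 10 outside targets and 1 of 8 NADPH genes fell, and 1 of 20 SREBP-1 control genes rose, against 1.25% of all tested genes falling and 0.938% rising.

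**Figure D4:**
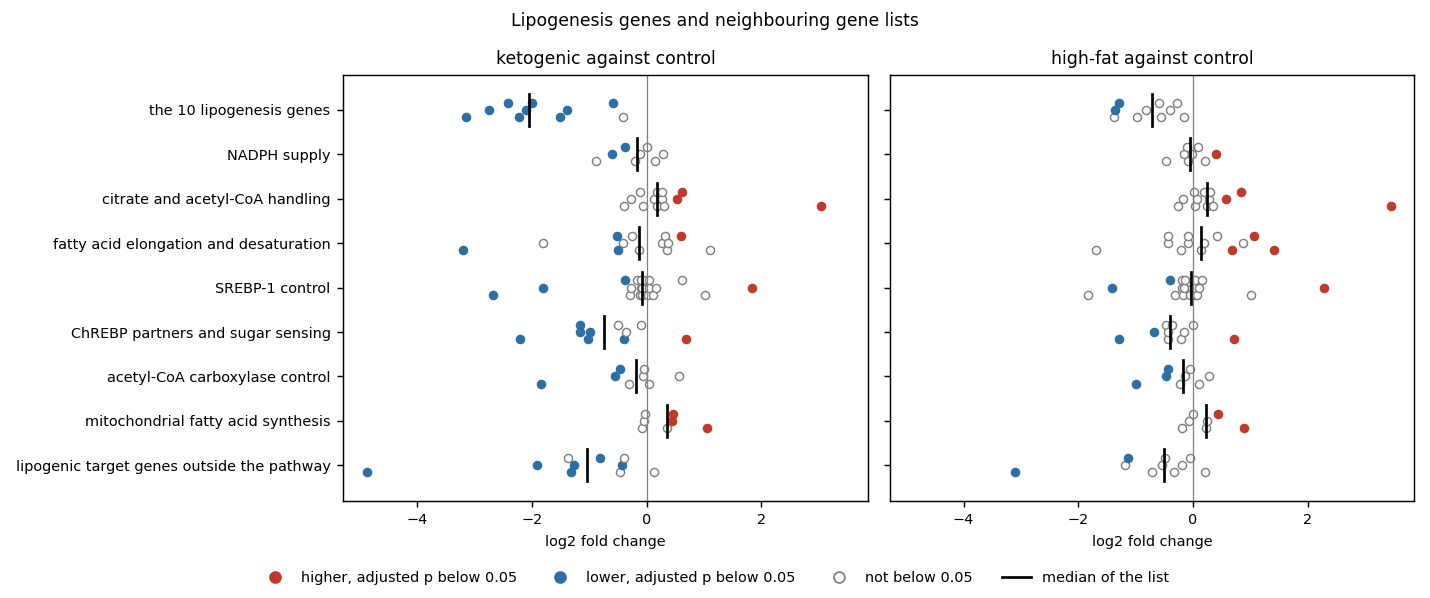
Log2 fold changes against control of the 10 lipogenesis genes and of the tested genes of the 8 lists around the pathway, 1 point per gene, with ketogenic in the left panel and high-fat in the right on a shared axis. Filled points passed the threshold (red higher, blue lower), and bars mark the median of each list. Acss3 at 3.05 and 3.44 is the highest point against control on the ketogenic and high-fat diets, and the lowest point in each panel is Pnpla3, whose ketogenic value rests on levels at or near 0 CPM.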

How the data were processed

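The authors deposited a table of raw counts, with whole reads for each Ensembl ID in 15 columns of libraries. Tools named without role or order in the submitters' processing notes are featureCounts 1.6, DESeq2 1.36.0, STAR 2.7.9a and cutadapt 1.16, on build GRCm39. The annotation release and strand setting of the counting were not given in the sources used here. Reads of overlapping or antisense genes may therefore be shared.

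Groups came from the sample titles, and control replicate 1 was left out. Counts were filtered with filterByExpr (minimum count 10, minimum total 15), scaled by TMM (factors 0.886 to 1.215), and fitted together for all diets in edgeR 4.0.16 under R 4.3.3 (estimateDisp, robust glmQLFit, two-sided glmQLFTest), with a biological coefficient of variation of 0.25. Standard errors are the log2 fold change divided by the root of the F statistic. The scripts were tested on simulated data. DESeq2 1.42.0, other scalings and filters, a replicate block, a library number term and leaving out each library were alternatives.

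Symbols matched 91.39% of IDs through GENCODE M21, whose GRCm38 exon lengths served levels per kb. The members, lists and tests were chosen with earlier results of these data known. Of each list the 3 passing genes of lowest adjusted p in each comparison could be named, together with the 6 genes of most similar pattern, of which 1 is not reported here. One listed gene, G6pc1, had no matching ID.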

Additional observations from a re-analysis of the deposited data

Results flagged for a closer look

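Within a diet, 39 sets of 4 or 5 libraries (the levels of the 10 genes and the 3 ratios, on each of the 3 diets) were searched for a library whose gap to its neighbour took up an unusually large part of the group's range. Chance picks out about 1 in 20 such sets when they are independent and normally distributed, and 6 of the 39 were picked out. These sets share libraries and genes, and levels were searched as CPM without logs. The rate therefore cannot tell whether 6 is more than chance gives. Ketogenic replicate 5 was far above its group for Fasn, at 1144 CPM, and for Acaca, at 215 CPM. High-fat replicate 2 was high for Me1, at 406 CPM. High-fat replicate 3 was high for Mlxipl, at 314 CPM. High-fat replicate 1 was high for Slc25a1, at 287 CPM. Control replicate 2 was high for the log2 ratio of Mlxipl to Srebf1, at -0.83. No cause of these values was tested.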

How the results depend on the processing

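Against control on the ketogenic diet, 8 to 10 members fell under every alternative and none rose. High-fat against control gave 2 members lower with all libraries, 4 with DESeq2 and 4 with only the 2 diets in the fit, and 1 to 6 when libraries were left out: 1 without control replicate 4, 5 without ketogenic replicate 5, and 6 without both ketogenic replicate 5 and high-fat replicate 1, a setting chosen after seeing the data. Ketogenic against high-fat gave 0 members lower with all libraries, 1 with no filter on low counts (Me1, adjusted p = 0.0177), 4 with DESeq2, 1 with the replicate block (Acacb, adjusted p = 0.0398), and 0 to 5 when libraries were left out. Mlxipl changed sign there without ketogenic replicate 5 (-0.02) and without both libraries (-0.0385), in a range up to 0.32 when libraries were left out. DESeq2 also passed Acaca (adjusted p = 0.0418) and Mlxipl (adjusted p = 0.02) on the high-fat diet.

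The replicate block removed Slc25a1 on the ketogenic diet (adjusted p = 0.0547). Libraries with the same number did not deviate together: over 13 pairs their correlations ran from -0.404 to 0.418, and 4 of 28 best partners shared a number.

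Over all genes, ketogenic against control gave 1093 higher and 673 lower, 1826 and 368 with library totals, which moved the median gene by 0.208, and 1056 lower with DESeq2; leaving out libraries gave 658 to 1295 higher and 398 to 906 lower. High-fat against control gave 1016 higher and 733 lower, with 420 lower by library totals, 1136 by DESeq2 and 1105 with only the 2 diets, and 591 to 1870 higher and 343 to 1369 lower when libraries were left out. Ketogenic against high-fat gave 1 higher and 8 lower. The numbers higher were 4 with library totals, 5 without the filter, 62 with DESeq2, 0 with 2 diets, 3 with the block, 0 with library number and 0 to 278 when libraries were left out. The numbers lower were 21 without the filter, 111 with DESeq2, 1 with 2 diets, 3 with library number and 1 to 358 when libraries were left out.

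With a difference in medians no ratio passed (adjusted p of 0.107 to 0.114): -0.98 for Acacb to Acaca between ketogenic and high-fat, 1.5 and 1.45 for Acss2 to Acly against control on the ketogenic and high-fat diets, and 1.89 and 0.55 for Mlxipl to Srebf1 on the ketogenic diet against control and high-fat. Leaving out libraries, these differences in means ran from -0.997 to -0.715, 1.18 to 1.61, 1.08 to 1.37, 1.54 to 1.93 and 0.63 to 1.04. That of Acss2 to Acly between ketogenic and high-fat ran from -0.0412 to 0.389, below 0 without ketogenic replicate 3 or high-fat replicate 2. The causes were not tested.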

Other observations

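Control replicate 1, which the submitters excluded as contaminated, was read on its own. Its levels lay below the 4 other control libraries for 5 members, with Acly at 968 CPM, Acacb at 142 CPM, Thrsp at 1339.5 CPM, Srebf1 at 519 CPM and Mlxipl at 249 CPM. For the other 5 members it lay within the control range, with Fasn at 2666 CPM.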
